A study of Sus scrofa with 36 samples.

Results

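CD74 and 9 other genes of antigen presentation were followed in the cerebellum of young pigs. The 10 genes were listed by name: CD74, the class II regulator CIITA, the class II genes SLA-DRA, SLA-DRB1, SLA-DQA1, SLA-DQB1, SLA-DMA and SLA-DMB, and the class I genes B2M and TAP1. Of these, 7 were matched by name to a row among the 31907 Ensembl pig gene identifiers that were counted. SLA-DRB1, SLA-DQA1 and B2M were not matched and are given no values under their names. The list was selected on measured values, since CD74 was chosen by its diet by birth weight interaction over all 36 libraries, and the others as its partners in antigen presentation. The values of CD74 for that interaction, and for the comparisons of single groups that make it up, are therefore given as a description without a test.

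The piglets were term-born Danish landrace × Yorkshire × Duroc animals that were 3 days old at the start and were formula-fed for about 3 weeks. The formula took its fat from plant oils (VEG) or from cow's milk (MILK), and the piglets were either of normal birth weight (NBW) or intrauterine growth restricted (IUGR). Each combination of diet and birth weight held 9 piglets, each with 1 RNA library of the cerebellum, and no group was mother-reared. The study drew its piglets from several litters, and the labels do not say which piglet came from which litter. Both sexes were present in every group, with 3 females and 6 males in MILK-NBW and 5 females and 4 males in each other group.

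Class II molecules are made by professional antigen-presenting cells, and in brain mainly by microglia, border macrophages and the few lymphoid cells there. CIITA switches on the class II genes together with CD74. SLA-DRA encodes the alpha chain of the DR molecule and SLA-DQB1 the beta chain of the DQ molecule. CD74, the invariant chain, holds new class II molecules in shape and blocks their groove until proteases such as CTSS and LGMN cut it away, and SLA-DMA and SLA-DMB together form the DM molecule that exchanges the last CD74 fragment for a peptide. TAP1 is part of the pump that moves peptides into the endoplasmic reticulum for class I. CD74 at the cell surface also binds the cytokine MIF.

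In the RefSeq annotation of build Sscrofa11.1, CD74 lies at chr2:151402210-151409924 and CIITA at chr3:32171706-32230775. The other members lie together on chromosome 7, with SLA-DRA at chr7:24825037-24830650, SLA-DQB1 at chr7:24969034-24977238, TAP1 at chr7:25062772-25071989, SLA-DMB at chr7:25119278-25125089 and SLA-DMA at chr7:25133494-25137928. The identifier used for SLA-DRA, ENSSSCG00000001453, has the symbol HLA-DRA in the table of gene names. Some class II genes have near-identical relatives, and how the counting shared reads between such genes is not given in the sources used here. The levels of the class II members are uncertain to that extent, and which of them this touches was not tested.

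Libraries of 3 piglets were left out, a choice made with earlier results of these data known. The study excluded 3 libraries for poor RNA integrity from VEG-IUGR, VEG-NBW and MILK-NBW, 1 of each, and does not give the piglet numbers. Piglets 202 (VEG-NBW), 210 (VEG-IUGR) and 213 (MILK-NBW) are left out here. They had the highest percentages of reads that could not be assigned to genes, which is not a measurement of RNA integrity. This unassigned percentage was 64.3% in piglet 210, 43.6% in piglet 202 and 31.5% in piglet 213, against 26.7% to 30.5% in the other 33. Piglet 210 had 7936202 counts on 6513 genes, whereas the 33 libraries had 15516541 to 23027502 counts (median 18025540) on 18635 to 19682 genes. Piglet 213, with 16934242 counts on 19532 genes, lay within these ranges. The 33 libraries comprised 8 piglets each of VEG-NBW, VEG-IUGR and MILK-NBW and 9 of MILK-IUGR, and values below are from these unless all 36 are named. Markers of cerebellar granule neurons summed to between 3426 and 5261 CPM (counts scaled to the same total in each library) in these libraries, and markers of microglia to between 108 and 321 CPM, with no marker of either list at 0 in all of them. Markers of T cells (4 genes) summed to between 0.515 and 2.21 CPM and those of B cells (4 genes) to between 1.22 and 3.43 CPM. Because this is bulk tissue, fewer cells of a type and less RNA per cell cannot be told apart.

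CD74 differed little between the groups. Its level was 463 ± 73.7 CPM in VEG-NBW (SD, n = 8; lowest 361, median 464, highest 581) and 481 ± 85.6 CPM in VEG-IUGR (SD, n = 8; lowest 381, median 482, highest 624). In MILK-NBW it was 515 ± 55.5 CPM (SD, n = 8; lowest 446, median 509, highest 620), and in MILK-IUGR 456 ± 42.0 CPM (SD, n = 9; lowest 391, median 461, highest 529). All groups overlapped, although 3 of 9 MILK-IUGR piglets lay below the lowest MILK-NBW piglet. In order of the mean, MILK-NBW was highest and MILK-IUGR lowest, and each difference between neighbours in that order was smaller than the SD within the groups. The highest and lowest means, MILK-NBW and MILK-IUGR, lay farther apart than either SD. IUGR against NBW had an estimate of -0.18 on the log2 scale on milk fat (SE 0.09, 95% interval -0.37 to 0.003) and 0.06 on vegetable oil (SE 0.10). The estimated difference between MILK and VEG was 0.16 on the log2 scale in NBW piglets (SE 0.10) and -0.08 in IUGR piglets (SE 0.09), which gave an interaction of -0.24 (SE 0.14, 95% interval -0.51 to 0.02). Leaving out each of the 33 piglets in turn moved this interaction between -0.29 and -0.18.

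With all 36 libraries, the interaction of CD74 was -2.26 (SE 0.71). Piglet 210 decided this value. Without piglet 210 alone, the interaction was -0.23, whereas it stayed at -2.29 without piglet 202 alone and at -2.15 without piglet 213 alone. In piglet 210, CD74 had 115373 counts, against 6218 to 13324 in the others, and was the gene with the second highest count. These were 1.45% of all its counts on genes, 30.6 times the median share of 0.0475% in the 33 libraries. CD74 was the highest of its group in the other left-out libraries as well. Scaled over all 36 libraries, it stood at 676 CPM in piglet 202, where the other VEG-NBW piglets reached 582, and at 727 CPM in piglet 213, where the other MILK-NBW piglets reached 615.

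The other members had no reads in piglet 210, as was the case for most genes of like abundance. CIITA, SLA-DRA, SLA-DQB1, SLA-DMA, SLA-DMB and TAP1 each had 0 counts there, which allows a level of up to 0.378 CPM (3 counts, for counting error only). Their lowest counts in any of the 33 libraries were 294 for CIITA, 21 for SLA-DRA, 29 for SLA-DQB1, 14 for SLA-DMA, 74 for SLA-DMB and 202 for TAP1. Zeros were common in this library: of 15356 genes tested, 61.2% had 0 counts, and of 5219 genes whose median count over the 33 libraries was within the range of these 6 members (34 to 393), 76.1% did. A ratio to the median of the 33 libraries larger than that of CD74 was found for 74 genes. Among the partners of CD74, MIF stood at 3754 CPM (before TMM scaling) in piglet 210, which was 16.7 times its median. CD44 had 197 counts, 3.77 times its median, whereas the chemokine receptor CXCR4 had 0 counts. Of 13 genes of the class II pathway, 11 had 0 counts, and IFI30, a lysosomal reductase for antigens, had 249 counts, 10.4 times its median. Of 12 microglial markers, 7 had 0 counts in piglet 210 and the remaining 5 were above their median, among them AIF1 (8.08 times) and CSF1R (2.20 times). Outside these lists, the Purkinje cell marker PCP2 was 11.9 times its median and the red blood cell marker HBB 39.8 times. In their lists, 1 of 4 Purkinje and 1 of 3 red blood cell markers were above their median. IFI30, AIF1, CSF1R, PCP2 and HBB were named after their values were seen. Of 44 ribosomal protein genes, a list chosen after the values were seen, 36 were above their median and 2 had 0 counts. The share of all genes above their median in piglet 210 is not given here, so these counts have no background. What part the state of this library has in its CD74 value was not tested.

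**Figure D1:**
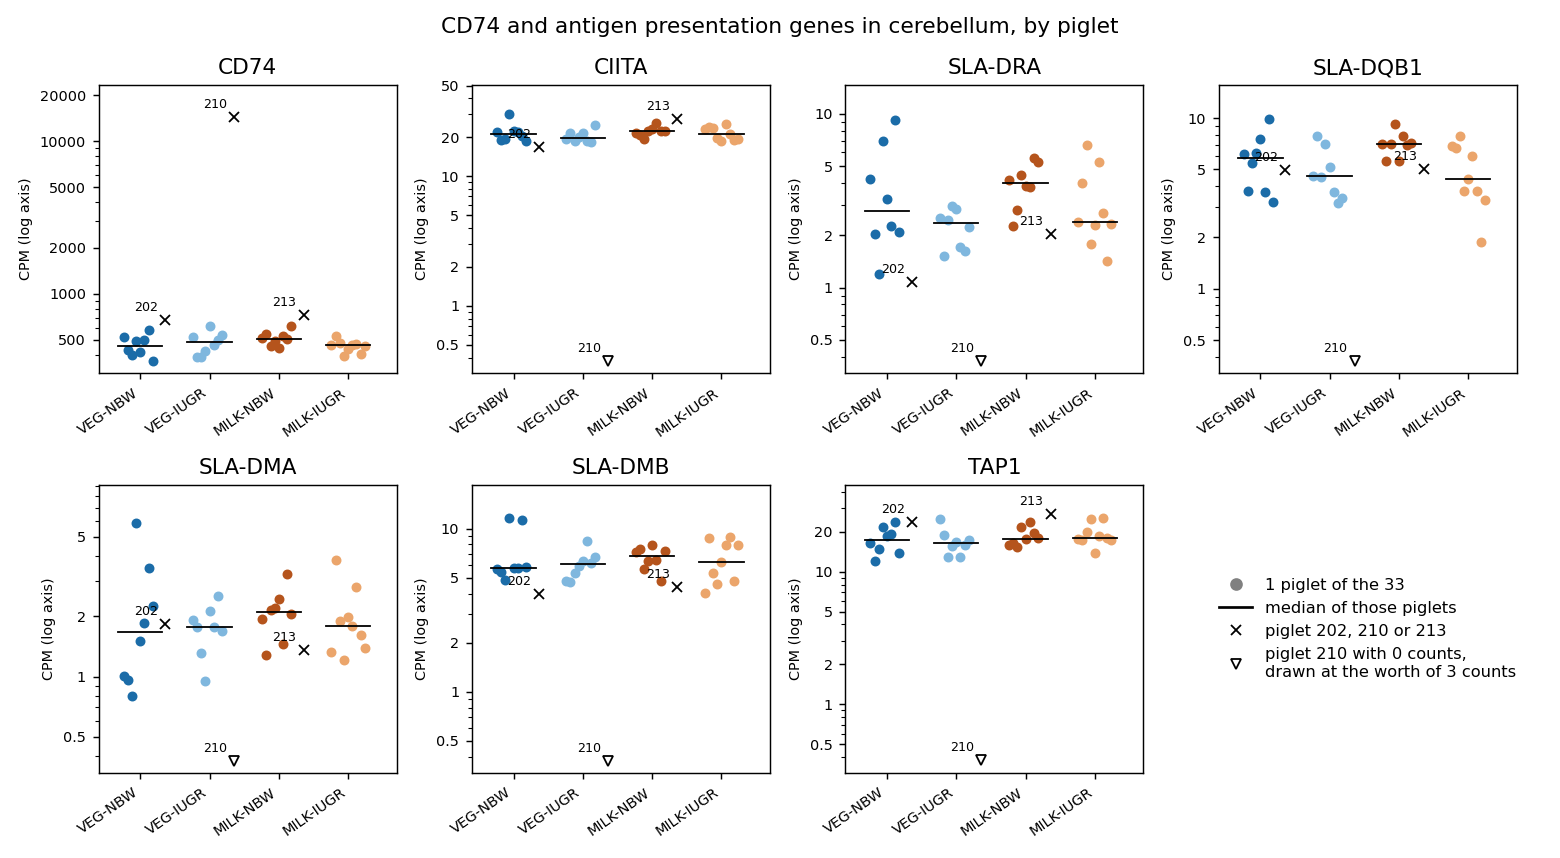
Level of each measured member in each piglet, as CPM scaled over 36 libraries on a log axis that differs between panels, by group. Points are the 33 piglets and bars their group medians, and crosses and triangles are piglets 202, 210 and 213. CD74 lay at 14392 CPM in piglet 210, far above every other library, while the triangles mark the 6 other members, which had 0 counts there and are drawn at the worth of 3 counts (0.378 CPM).

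SLA-DRA, the DR alpha chain, varied more between piglets than CD74 did. Over the 33 libraries it ran from 1.20 to 9.26 CPM (21 to 180 counts), with a coefficient of variation of 55.0%, against 13.9% for CD74. With so few counts, counting error is part of this spread. It was 3.93 ± 2.83 CPM in VEG-NBW (SD, n = 8; lowest 1.20, median 2.76, highest 9.26), 2.24 ± 0.568 CPM in VEG-IUGR (SD, n = 8; lowest 1.51, median 2.37, highest 2.97), 4.03 ± 1.13 CPM in MILK-NBW (SD, n = 8; lowest 2.27, median 4.02, highest 5.58) and 3.22 ± 1.77 CPM in MILK-IUGR (SD, n = 9; lowest 1.41, median 2.38, highest 6.68). The VEG-NBW group held both the lowest and the highest piglet, and 4 of its 8 piglets lay above all VEG-IUGR piglets. The interaction was 0.45 on the log2 scale (SE 0.47, adjusted p = 0.855), and it was 0.09 when means of log2 CPM were compared. Without VEG-NBW piglet 228 it was 0.18.

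SLA-DQB1, the DQ beta chain, was 5.75 ± 2.24 CPM in VEG-NBW (SD, n = 8; lowest 3.21, median 5.79, highest 9.82) and 4.96 ± 1.70 CPM in VEG-IUGR (SD, n = 8; lowest 3.19, median 4.58, highest 7.86). It was 7.09 ± 1.18 CPM in MILK-NBW (SD, n = 8; lowest 5.62, median 7.08, highest 9.27) and 4.95 ± 2.00 CPM in MILK-IUGR (SD, n = 9; lowest 1.86, median 4.43, highest 7.90). On milk fat, 5 of 9 IUGR piglets lay below the lowest NBW piglet, and the groups overlapped in the rest. Its interaction of -0.35 (SE 0.33, adjusted p = 0.842) was the one negative value among the 6 other members, while 50.4% of all genes had a negative estimate.

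SLA-DMA and SLA-DMB, the chains of the peptide exchanger DM, had group means of 1.77 to 2.23 CPM and 6.07 to 7.03 CPM. Both had their highest value in VEG-NBW piglet 216, with 5.99 CPM for SLA-DMA and 11.8 CPM for SLA-DMB. The interaction was 0.24 for SLA-DMA (SE 0.44, adjusted p = 0.929) and 0.15 for SLA-DMB (SE 0.26, adjusted p = 0.924). All groups overlapped for both genes.

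CIITA, the class II transactivator, was the steadiest member, with a coefficient of variation of 12.5% over the 33 libraries. Its group means lay between 20.5 CPM in VEG-IUGR and 22.3 CPM in MILK-NBW, and its interaction was 0.06 (SE 0.12, 95% interval -0.18 to 0.30, adjusted p = 0.935). TAP1, the class I peptide transporter, had group means between 17.0 CPM in VEG-IUGR and 19.3 CPM in MILK-IUGR, and an interaction of 0.10 (SE 0.20, 95% interval -0.28 to 0.49, adjusted p = 0.931).

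Thus 0 of the 6 other members passed the threshold for the interaction (edgeR quasi-likelihood test, Benjamini-Hochberg adjusted p under 0.05), and 0 did at an unadjusted p under 0.05. Over all 15356 genes, the background was 0% at the adjusted threshold and 6.09% at the unadjusted one. DESeq2 also called 0 of the 6 members, against 2 of 25708 genes. A permutation test of each gene alone gave p-values from 0.204 for SLA-DQB1 to 0.897 for SLA-DMA (two-sided, n = 33). The intervals of the class II chains are wide, and for SLA-DRA the interval ran from -0.46 to 1.37. Over all 36 libraries, 0 of the 6 other members were called (background 0%) and 5 of their estimates were positive, between 0.19 for CIITA and 0.61 for SLA-DRA, while that of SLA-DQB1 was -0.16, against 31.4% of all genes with a negative estimate. The median of all genes was itself 0.14 in that fit, and that of CD74 was negative.

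**Figure D2:**
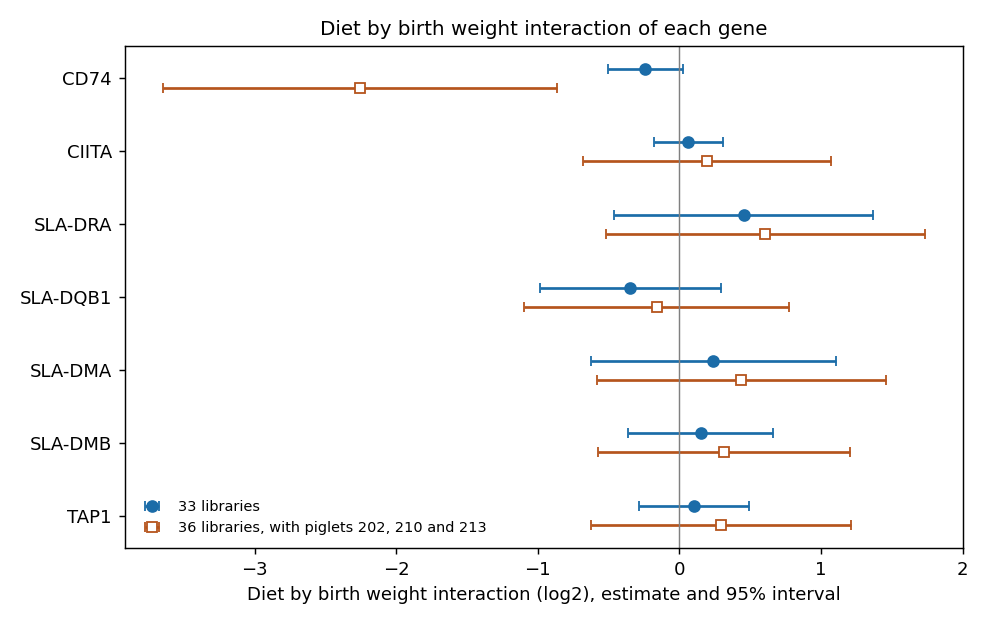
Diet by birth weight interaction of each measured member on the log2 scale, with its 95% interval, from 33 libraries (filled circles) and from all 36 (open squares). The estimate of CD74 moved from -0.24 to -2.26 when piglets 202, 210 and 213 were included, whereas the intervals of the 6 other members included 0 in both fits.

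For birth weight, the lowest estimates among the members were those of the class II chains. SLA-DRA was lower in IUGR than in NBW piglets by an estimate of -0.56 on the log2 scale (SE 0.23, 0.677-fold, unadjusted p = 0.0193 by edgeR), and SLA-DQB1 by -0.40 (SE 0.16, 0.759-fold, unadjusted p = 0.0204 by edgeR). Neither passed the adjusted threshold (adjusted p = 0.9996 for both, edgeR). The estimates of SLA-DMA (-0.21, SE 0.22), SLA-DMB (-0.13, SE 0.13), CIITA (-0.06, SE 0.06) and CD74 (-0.06, SE 0.07) were also below 0, and that of TAP1 was 0.01 (SE 0.10). Of the 6 members other than CD74, 0 were called at the adjusted threshold, against a background of 0% of all genes, and 2 had an unadjusted p under 0.05 with a lower level in IUGR, against 1.17% of all genes. Estimates below 0 were found for 5 of these 6 members and for 50.4% of all genes. The members are not independent of each other in these counts. SLA-DRA and SLA-DQB1 were correlated between piglets within groups (r = 0.64), and both were highest in piglet 228. Without VEG-NBW piglet 228, which had the highest SLA-DRA of all, the estimate for SLA-DRA was -0.39, and without MILK-IUGR piglet 214 it was -0.67.

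Within the diets, SLA-DRA was lower in IUGR than NBW piglets by -0.80 on vegetable oil (SE 0.33, unadjusted p = 0.0224, adjusted p = 0.9996 by edgeR) and by -0.34 on milk fat (SE 0.32, adjusted p = 0.851 by edgeR). For SLA-DQB1 the order of the diets was the other way, with -0.22 on vegetable oil (SE 0.23, adjusted p = 0.9996 by edgeR) and -0.57 on milk fat (SE 0.23, unadjusted p = 0.0179, adjusted p = 0.771 by edgeR). Without piglet 228, the estimates on vegetable oil were -0.48 for SLA-DRA and -0.08 for SLA-DQB1. The difference between the diets is the interaction given above, and it was called for neither gene. Backgrounds in these comparisons were 0% of all genes at the adjusted threshold, and 2.29% on vegetable oil and 6.24% on milk fat at an unadjusted p under 0.05. Microglial markers, as a list, were below 0 for birth weight in 10 of 12 genes, against 50.4% of all genes (median -0.06, all genes 0.00). Of these 12 markers, 0 were called, against 0% of all genes. Their summed level was 157 to 321 CPM in VEG-NBW (median 198), 158 to 248 CPM in VEG-IUGR (median 210), 189 to 261 CPM in MILK-NBW (median 218) and 108 to 265 CPM in MILK-IUGR (median 227). The part of these cells in the levels of the class II genes was not tested.

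For diet, all 6 members other than CD74 had estimates above 0 for MILK against VEG, from 0.02 for SLA-DMB (SE 0.13) to 0.28 for SLA-DRA (SE 0.23), and that of CD74 was 0.03 (SE 0.07). None was called by edgeR (adjusted p of at least 0.985, background 0%), and 0 of the 6 had an unadjusted p under 0.05, against 4.26% of all genes. Estimates below 0 were found for 52% of all genes. With single piglets left out, the estimate turned negative in 7 of 33 fits for SLA-DMA (lowest -0.049, without piglet 207) and in 11 of 33 for SLA-DMB (lowest -0.018, without piglet 232). Between the sexes, 0 of the 6 members were called, against 25 of 15356 genes (0.163%).

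**Figure D3:**
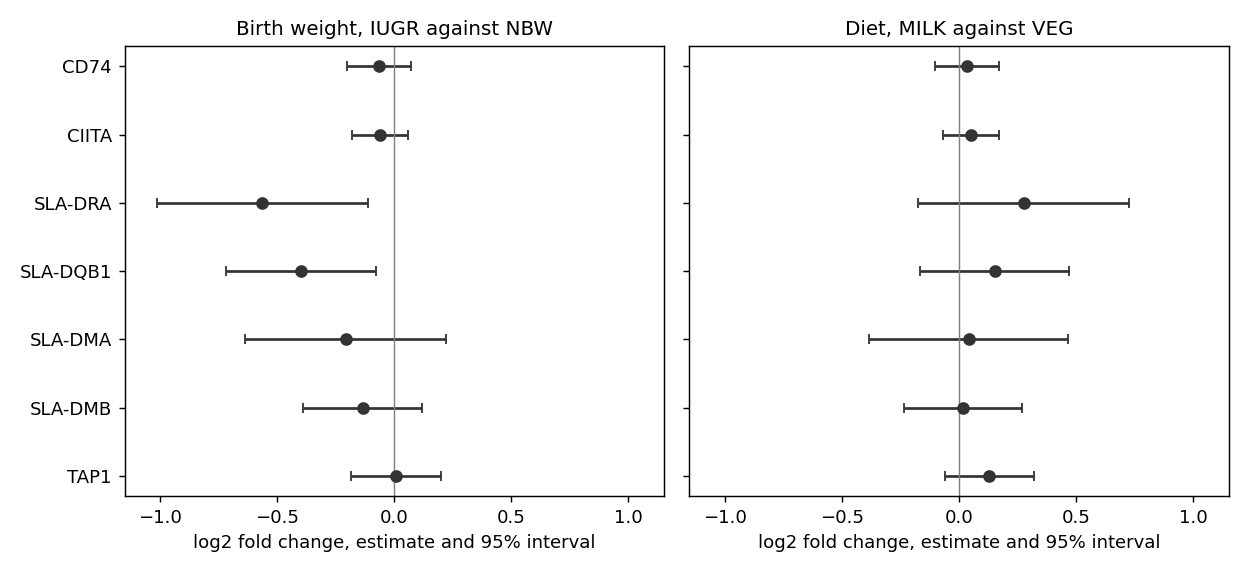
Log2 fold change of each measured member for birth weight (IUGR against NBW, left) and diet (MILK against VEG, right) over 33 libraries, with 95% intervals. The intervals of SLA-DRA and SLA-DQB1 lie below 0 for birth weight before adjustment over all genes, and all intervals for diet include 0.

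The spread between piglets within a group gave a second view of the members that does not rest on the contrast CD74 was chosen for. For this, group means were taken off the log2 CPM of the 33 piglets. CD74 was positively correlated with all 6 other members. The relation was firmest for SLA-DRA (Pearson r = 0.54, Spearman rho = 0.54, permutation p = 0.00142, adjusted over all genes 0.0134) and SLA-DMB (r = 0.48, rho = 0.46, permutation p = 0.00589, adjusted 0.0350). The other members did not pass the adjusted threshold, with r = 0.43 and rho = 0.50 for CIITA (permutation p = 0.0207, adjusted 0.0814), r = 0.37 and rho = 0.30 for SLA-DMA (permutation p = 0.0625, adjusted 0.172), r = 0.36 and rho = 0.37 for TAP1 (permutation p = 0.0681, adjusted 0.183) and r = 0.22 and rho = 0.21 for SLA-DQB1 (permutation p = 0.229, adjusted 0.407). Without piglets 211 and 229, the farthest from the median of CD74, r was 0.53 for SLA-DRA and 0.50 for SLA-DMB. These relations rest on leaving out piglets 202 and 213 as well as 210. Over the 36 libraries except piglet 210, r was 0.18 for SLA-DRA (adjusted 0.567 by permutation) and 0.14 for SLA-DMB (adjusted 0.666), while TAP1 passed the threshold (r = 0.48, adjusted 0.0444 by permutation).

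Many genes were correlated with CD74, so these values do not set the class II genes apart. Positive correlations past the adjusted threshold were found for 1620 genes and negative ones for 1418. SLA-DRA ranked 1103 of 15355 genes by r, SLA-DMB 1578 and CIITA 2048. The genes most like CD74 that carry a symbol were not class II genes. RPL3, a protein of the large ribosomal subunit, came first (r = 0.95, rho = 0.95), followed by the ribosomal protein RPLP2 (r = 0.92), the translation initiation factor subunit EIF3G (r = 0.91) and ENSSSCG00000013064 (r = 0.90). ENSSSCG00000025928, NOP53, SNRPD2, ENSSSCG00000029830, COPE and MYDGF came next, with r from 0.89 to 0.88. NOP53 acts in ribosome assembly, SNRPD2 is a spliceosome core protein, COPE is a subunit of the coatomer of Golgi vesicles and MYDGF is a secreted growth factor. The permutation p of each of these 10 genes was 1e-05, the smallest that 100000 permutations can give (adjusted 0.000609). Ribosomal protein genes, the list chosen after the values were seen, had a median r of 0.50 with CD74 (44 genes), against 0.02 for all genes. In the RefSeq annotation, CD74 lies 1180 bases from TCOF1 and 20122 bases from the ribosomal protein gene RPS14, whose own identifier is not among the rows used here. Whether reads of other transcripts were counted on CD74 was not tested.

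SLA-DRA had another set of neighbours when it was used in place of CD74, a step added after the values were seen. SLA-DQB1 was the matched member most like it (r = 0.64, rho = 0.63, permutation p = 0.000500, adjusted 0.0448), at rank 72 of 15355. CIITA followed at rank 191 (r = 0.59, rho = 0.59, permutation p = 0.00156, adjusted 0.0598), CD74 at rank 319 (r = 0.54, adjusted 0.0596 by permutation) and SLA-DMA at rank 342 (r = 0.54, adjusted 0.117 by permutation). SLA-DMB (r = 0.50, rank 555) and TAP1 (r = 0.39, rank 1562) were farther away. Without piglets 215 and 228, the farthest from the median of SLA-DRA, r was 0.64 for SLA-DQB1 and 0.68 for CIITA, and it was 0.40 for SLA-DMA and 0.35 for SLA-DMB. The chains of DM were correlated with each other (r = 0.59), whereas SLA-DQB1 had r = 0.14 with SLA-DMA and r = 0.11 with SLA-DMB. Only 160 genes were positively and 89 negatively correlated with SLA-DRA past the adjusted threshold.

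**Figure D4:**
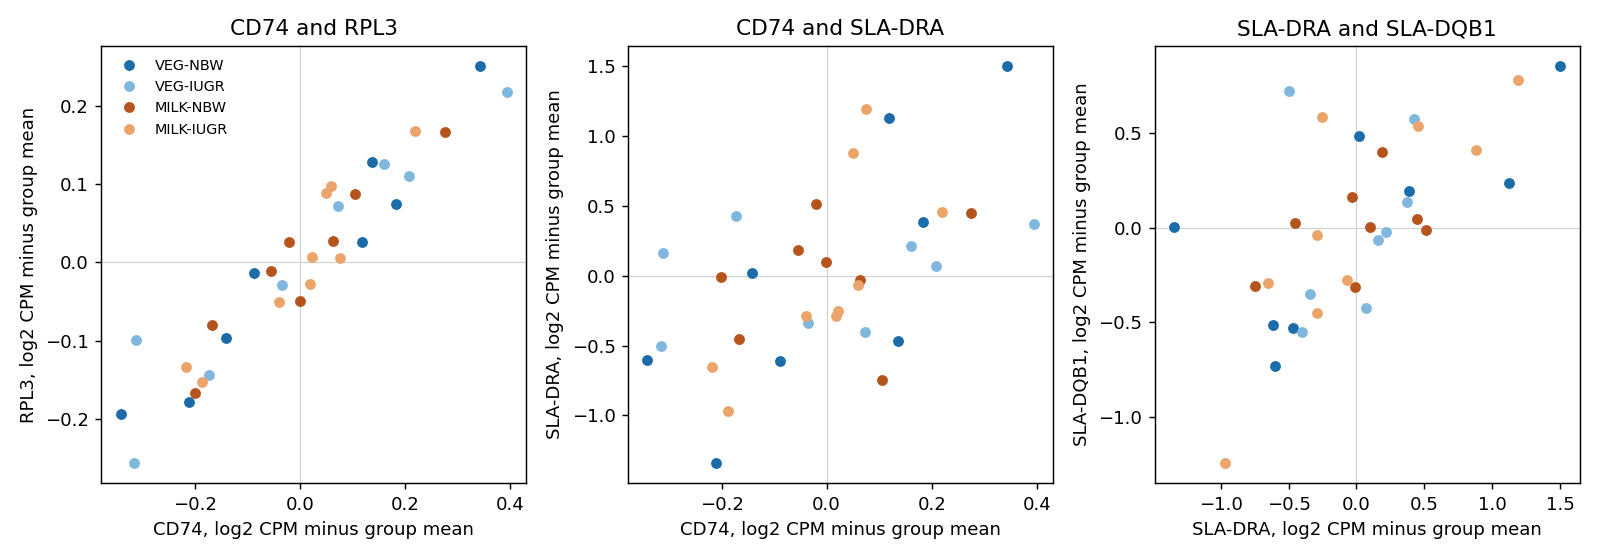
Log2 CPM after removal of the group mean for CD74 and RPL3 (left), CD74 and SLA-DRA (middle) and SLA-DRA and SLA-DQB1 (right), with 1 point per piglet (n = 33) coloured by group. CD74 and RPL3 lie close to a line (r = 0.95), while CD74 and SLA-DRA (r = 0.54) and SLA-DRA and SLA-DQB1 (r = 0.64) scatter widely.

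Among genes not matched to a member, those most like SLA-DRA were ENSSSCG00000001455 (r = 0.78), the matrix protein gene MGP (r = 0.77), the protease inhibitor SERPINB1 (r = 0.76), ENSSSCG00000001456 (r = 0.74) and the complement protease CFD (r = 0.73). Neither of these Ensembl identifiers carries a symbol, and whether they are among the unmatched members was not tested. IFI30, which opens disulphide bonds of antigens for class II, had r = 0.66 (rank 46, permutation p = 0.000430, adjusted 0.0448), and the microglial complement genes C1QB and C1QC had r = 0.67 (adjusted 0.0448 by permutation) and r = 0.60 (adjusted 0.0512 by permutation). Microglial markers had a median r of 0.41 with SLA-DRA (12 genes, 11 above 0) and of 0.35 with CD74 (11 above 0). Granule neuron markers were below 0 with both in 7 of 7 genes, with medians of -0.28 for SLA-DRA and -0.48 for CD74. The choroid plexus gene KCNJ13 had r = 0.65 with SLA-DRA (adjusted 0.0388 by permutation) and the meningeal gene DCN r = 0.56 (adjusted 0.0654 by permutation). All genes named here beside SLA-DRA were chosen after their values were seen. The unassigned percentage of reads was also correlated with SLA-DRA (r = -0.54, rho = -0.56, permutation p = 0.00517, adjusted over 6 relations 0.0310), although r was -0.35 without the 2 farthest piglets. For CD74 this correlation was -0.40 (rho = -0.46, permutation p = 0.0271, adjusted 0.0814). The part of cell makeup and of the unassigned percentage in the correlations was not tested.

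**Figure D5:**
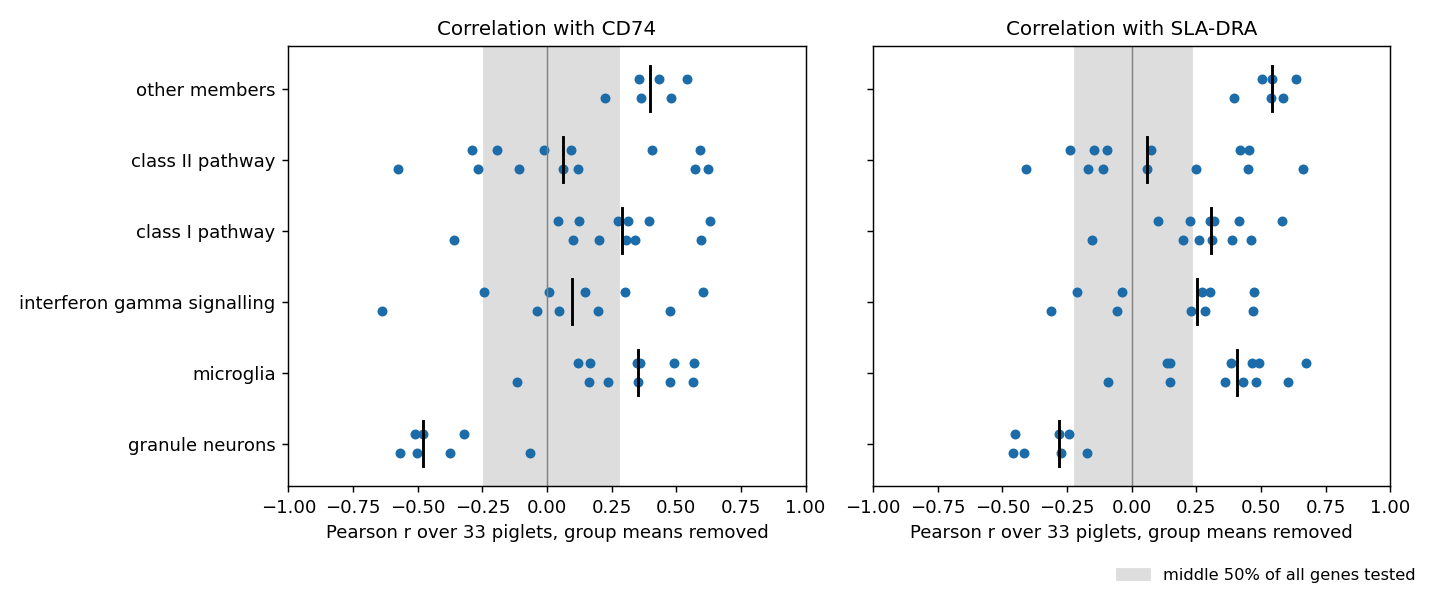
Pearson r of single genes with CD74 (left) and SLA-DRA (right) over 33 piglets, after removal of group means, for the members and 5 gene lists. Points are genes, bars list medians, and the grey band holds the middle 50% of all genes tested. Microglial markers lie mostly above 0 (medians 0.35 and 0.41) and granule neuron markers below 0 (medians -0.48 and -0.28).

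A pair of VEG-NBW piglets, singled out after the values were seen, stood high for several class II genes. Piglet 228 was highest of 33 for SLA-DRA (9.26 CPM, 3.40 times the median) and SLA-DQB1 (9.82 CPM, 1.75 times), second for SLA-DMB (11.2 CPM) and had rank 3 for SLA-DMA (3.50 CPM) and CD74 (581 CPM). Piglet 216 was highest for CIITA (30.7 CPM, 1.43 times the median), SLA-DMA (5.99 CPM, 3.24 times) and SLA-DMB (11.8 CPM, 1.90 times) and second for SLA-DRA (7.11 CPM), but ranked 14 for CD74 (497 CPM) and 14 for SLA-DQB1 (6.37 CPM). These piglets also had the highest summed microglial markers, with 321 CPM in piglet 216 and 288 CPM in piglet 228. Markers of some other cells were high in them as well. Piglet 216 had rank 2 of 33 for border macrophages (22.4 CPM) and red blood cells (26.7 CPM), rank 4 for meninges (434 CPM) and rank 7 for choroid plexus (47.1 CPM). Piglet 228 had rank 2 for T cells (1.79 CPM) and rank 3 for choroid plexus (190 CPM). In contrast, piglet 228 had rank 12 for border macrophages (13.3 CPM), rank 25 for red blood cells (4.78 CPM) and rank 26 for meninges (242 CPM). Their summed B cell markers had ranks 32 and 12, and the T cell markers of piglet 216 had rank 24. The part of these cells in the class II levels of both piglets was not tested.

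Other genes of the class II pathway showed no interaction past the threshold. Of 15 genes listed, 13 were tested and 0 were called in either direction, against 0% of all genes, with a median of -0.04 (median of all genes -0.002). At an unadjusted p under 0.05, 1 of the 13 had a positive interaction and 0 a negative one, against 6.09% of all genes in either direction. The most abundant were NFYC, a subunit of the NF-Y factor at class II promoters (128 ± 7.47 CPM, SD, n = 33; interaction -0.08, SE 0.07), and the lysosomal proteases CTSB (114 ± 10.3 CPM; -0.04, SE 0.09) and LGMN (55.1 ± 7.31 CPM; -0.11, SE 0.14). LGMN and CTSB were correlated with CD74 within groups (r = 0.62, adjusted 0.00408, and r = 0.57, adjusted 0.0139, by permutation), at ranks 631 and 921 of all genes. NFYC was not (r = -0.01, adjusted 0.972 by permutation). Over the 13 genes, r with CD74 ran from -0.57 to 0.62, with a median of 0.06 (all genes 0.02) and 7 genes above 0.

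Of 20 genes of the class I pathway, 13 were matched to a row and 12 were tested. Of these, 0 were called, against 0% of all genes, with a median interaction of 0.06. The chaperones CANX (459 ± 34.4 CPM, SD, n = 33; interaction 0.05, SE 0.08), CALR (329 ± 28.8 CPM; -0.02, SE 0.09) and PDIA3 (196 ± 13.1 CPM; -0.03, SE 0.07) were the most abundant. At an unadjusted p under 0.05, 2 of the 12 had a positive interaction and 0 a negative one, against 6.09% of all genes in either direction. ERAP1, which trims peptides for class I, had the smallest unadjusted p of the list and is named after its value was seen (interaction 0.60, SE 0.16, unadjusted p = 0.00077, adjusted p = 0.784 by edgeR).

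Of 11 genes of interferon gamma signalling, which induces CIITA, 10 were tested and 0 were called (background 0%), with a median interaction of 0.07. The kinase JAK1 (192 ± 7.53 CPM, SD, n = 33) and the transcription factor IRF8 (48.5 ± 9.99 CPM) had interactions of -0.03 (SE 0.05) and 0.34 (SE 0.20). IFNG itself had at most 1 count in a library. The partners of CD74 were not called either (background 0%), with interactions of -0.14 for MIF (SE 0.14), -0.16 for CXCR4 (SE 0.14) and 0.08 for the co-receptor CD44 (SE 0.21). Within groups, MIF had r = 0.53 with CD74 (adjusted 0.0273 by permutation).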

How the data were processed

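For each of 36 piglets, the deposited table holds raw counts of cerebellar RNA-seq read pairs per Ensembl pig gene, which the authors had not normalized. The submitters' processing notes name Trim Galore, HISAT2, HTSeq and DESeq2 and build Sscrofa11.1. Tool versions, the release of the annotation and whether counting used strand are not given in the sources used here, and reads of overlapping genes cannot be told apart. Rows without a gene were kept out of totals and tests, and their share is the unassigned share in the text. Of 31907 identifiers, 15029 had a symbol. Coordinates are RefSeq's.

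The members, the lists and the choice of 33 libraries were made with earlier results of these data known. Named genes were the members, the 3 most abundant genes of each pathway list, 1 of which is not reported here, and the 10 genes most correlated with CD74. Others are said to be named after their values were seen.

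The counts were fitted with edgeR 4.0.16 under R 4.3.3 (TMM, filterByExpr with minimum count 10, quasi-likelihood test) in a model of the 4 group means and sex. The main effects of diet and birth weight came from a model with both and sex. Genes were called at a Benjamini-Hochberg adjusted p under 0.05 over 15356 genes, or 15330 genes with all 36 libraries. The SE is the log2 fold change over the square root of its F statistic, and 95% intervals use it with the normal distribution. CPM are TMM-scaled and not per length, so levels of different genes are not compared, and marker sums are unscaled CPM. Correlations used log2 CPM (prior count 2), with 100000 permutations of piglets within groups. Single-gene interactions were tested by 100000 permutations of residuals. Alternatives used all 36 libraries, DESeq2 size factors in edgeR, DESeq2 1.42.0, no sex term, no filter, limma 3.58.1 voom with quality weights, and each of the 33 piglets left out. Leaving out piglet 202, 210 or 213 alone (for correlations, 210) was added after seeing the data. Of the tests, only the edgeR interaction was tried on simulated data, as was the calculation of Pearson r. The permutation tests and the other contrasts were not. Litter could not be modelled, since no label gives it. No numbers pair piglets across groups.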

Additional observations from a re-analysis of the deposited data

Results flagged for a closer look

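In groups of 8 or 9 piglets, a value was set aside for a closer look where its gap to the nearest other value took up an unusually large part of the range of its group (Dixon's 95% limit). Each group of the 7 members was searched over the 33 libraries and again over all 36, which makes 56 searches, and 7 values were set aside. Chance gives about 1 in 20 in independent groups. These searches share piglets, so the count of 7 cannot be set against that. CIITA was 30.7 CPM in VEG-NBW piglet 216, where the next piglet had 22.5 CPM, and it was 30.2 CPM when all 36 libraries were scaled together. The other 5 values are all from VEG-IUGR piglet 210. CD74 was 14392 CPM there, with 617 CPM in the next piglet of the group, and CIITA, SLA-DRA, SLA-DMB and TAP1 were each 0 CPM, where the next lowest piglets had 18.4, 1.52, 4.71 and 12.8 CPM.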

How the results depend on the processing

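The members other than CD74 had 0 calls for the interaction, diet and birth weight under each alternative run. Calls were rare among all genes as well. DESeq2 called 2 of 25708 genes for the interaction and 0 for diet and birth weight, and the other alternatives called 0 genes. Calls over all genes are not given for the fits with 1 of the 33 piglets left out. For CD74 the interaction of -0.24 moved by less than the spread between piglets under the alternatives on the 33 libraries, but was -2.26 with all 36 libraries, -2.29 without piglet 202 alone and -2.15 without piglet 213 alone. With all 36 libraries, its birth weight estimate turned to 0.69 and its diet estimate to -0.77. Without piglet 202 alone these were 0.63 and -0.81, and without piglet 213 alone 0.75 and -0.83. Correlations with CD74 turned negative with all 36 libraries, with r = -0.95 for CIITA, -0.67 for SLA-DRA, -0.84 for SLA-DQB1, -0.69 for SLA-DMA, -0.88 for SLA-DMB and -0.91 for TAP1. All 6 were positive without piglet 210 alone, at 0.18 for SLA-DRA and 0.14 for SLA-DMB, no longer past the threshold, and 0.48 for TAP1, now past it. In the test of single genes, the interaction of SLA-DQB1 went from -0.46 to 0.24 and that of SLA-DMA from -0.06 to 0.50 with all 36 libraries. The interaction of SLA-DRA was 0.18 without piglet 228. Uncalled interactions also changed sign, that of SLA-DMA to -0.22 with voom. With each of the 33 piglets left out in turn, the interaction ran from -0.25 to 0.38 for SLA-DMA, from -0.026 to 0.10 for CIITA and from -0.034 to 0.23 for SLA-DMB, each lowest without piglet 216, and the birth weight estimate of TAP1 from -0.044 (without piglet 201) to 0.050. The birth weight estimate of TAP1, 0.01, was -0.14 with all 36 libraries, -0.031 with voom, -0.051 without piglet 210, -0.10 without piglet 202 and -0.11 without piglet 213 alone. The cause of the other changes was not tested. The unadjusted p of SLA-DRA and SLA-DQB1 for birth weight was under 0.05 in both with DESeq2 and voom, in 1 of them without piglet 210 alone and in neither with all 36 libraries. No paired analysis was possible because replicate numbers were given in accession order and no label ties piglets of different groups. The depth limits the class II chains most, since SLA-DMA had a median of 34 counts and SLA-DRA of 51.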
